A study of Mus musculus with 8 samples.

Results

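Hyaluronan is a long unbranched sugar polymer made at the cell surface, and together with the large proteoglycan versican it forms a hydrated, space-filling matrix around fibroblasts. The 8 mouse genes described here make, cut, bind or cross-link that matrix. They are the hyaluronan synthases Has1, Has2 and Has3, the hyaluronidases Hyal1 and Hyal2, the hyaluronan receptor Cd44, the hyaluronan-binding proteoglycan Vcan (versican) and Tnfaip6 (TSG-6), which links protein chains onto hyaluronan. They were taken by gene symbol and are 8 of the 54532 genes in the deposited table. All 8 had values, and 6 of them passed the filter on low values that left 12994 genes for testing. Has1 and Has3 did not pass it, and their values are given without a test. In the heart, Has2 and versican are known for their part in forming the jelly-like matrix of the embryonic heart, and hyaluronan-rich matrix is known to accumulate around activated fibroblasts.

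RNA was sequenced from mouse cardiac fibroblasts at day 7 in 4 groups of 2 libraries. The groups were EphrinB2-overexpressing cells under osteogenic differentiation, EphrinB2-overexpressing cells in complete medium, vector cells under osteogenic differentiation and vector cells in complete medium. The gene Efnb2 encodes EphrinB2, a ligand that is held in the cell membrane and is read by Eph receptors on neighbouring cells. The labels give no strain, age or sex of the mice, no promoter or delivery method for the vector, and no composition of either medium, and they do not tell whether partner libraries were grown as separate cultures. P-values therefore set differences between group means only against the spread between partner libraries, shared over all groups, and that spread may be technical.

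The steps between low FPKM values (fragments scaled by exon length and by depth) put the depth at 16493963 to 20550770 reads in each library. Efnb2 had 5.02 and 18.3 FPKM in EphrinB2 osteogenic libraries and 31.3 and 32.8 FPKM in EphrinB2 complete libraries, against 1.39 and 1.27 FPKM in vector osteogenic libraries and 6.30 and 5.56 FPKM in vector complete libraries. All 12 fibroblast markers passed the filter, with summed levels of 3071 to 3320 FPKM and 5527 to 6476 FPKM in EphrinB2 osteogenic and complete libraries and 2931 to 2998 FPKM and 5214 to 5393 FPKM in vector osteogenic and complete libraries. The markers did not move together. In the tests described below, 1 rose and 4 fell in osteogenic medium in each kind of cell. Over all tested genes 6.36% rose and 5.44% fell in EphrinB2 cells, and 4.41% rose and 3.11% fell in vector cells. All 14 macrophage markers passed it too, with summed levels of 4134 to 8323 FPKM in EphrinB2 osteogenic and 870.2 to 1798 FPKM in EphrinB2 complete libraries, and 4656 to 4876 FPKM in vector osteogenic and 1873 to 2132 FPKM in vector complete libraries. No macrophage marker was at 0 in any library, and the part of such cells in the results was not tested. Summed endothelial markers lay between 8.97 and 12.5 FPKM, lymphocyte markers between 0.117 and 0.440 FPKM and mesothelial markers between 7.66 and 10.53 FPKM. The endothelial and mesothelial sums hide opposite moves. Of 3 tested endothelial markers, 1 fell in osteogenic medium in each kind of cell and 0 rose. Of 3 mesothelial ones, 1 rose and 0 fell. Mean Cdh5 was 0.376 FPKM in EphrinB2 osteogenic and 2.26 FPKM in EphrinB2 complete cells, while Tek stood at 9.25 and 6.16 FPKM. Msln stood at 4.65 and 0.176 FPKM there, and Upk3b at 3.66 and 6.57 FPKM. Vector cells differed in the same directions. Cardiomyocyte markers summed to 8.68 to 15.5 FPKM in EphrinB2 osteogenic and 0.895 to 0.929 FPKM in EphrinB2 complete libraries, and to 6.04 to 7.16 FPKM in vector osteogenic and 0.694 to 0.937 FPKM in vector complete libraries. Tnnt2 was the 1 of these 8 markers that passed the filter, and only its osteogenic libraries reached 1 FPKM. On the log2 scale described below, it rose in osteogenic medium by 2.80 in EphrinB2 cells and 2.12 in vector cells. Myh6, Myh7, Actc1 and Ryr2 stood at or near 0. Mural markers, nearly all of them Acta2, which fibroblasts also carry, summed to 625.0 to 914.2 FPKM in EphrinB2 osteogenic and 945.8 to 1031 FPKM in EphrinB2 complete libraries, and to 416.8 to 520.8 FPKM in vector osteogenic and 764.2 to 895.2 FPKM in vector complete libraries. EphrinB2 osteogenic replicate 1 and EphrinB2 complete replicate 2 lay farther than their partners from the mean of the vector libraries in the same medium, and are called the libraries that stood apart. The SD over tested genes of the log2 difference from that mean was 0.69 for EphrinB2 osteogenic replicate 1 and 0.23 for its replicate 2, and 0.42 for EphrinB2 complete replicate 2 and 0.26 for its replicate 1. With 2 libraries a group, which partner is the more typical cannot be told from their own difference. FPKM summed over all genes was 360626 in EphrinB2 osteogenic replicate 1, against 253613 to 269809 in the other libraries. The part of this in the levels of single genes was not tested. The SD over genes of the log2 difference between partners was 0.66 and 0.52 in EphrinB2 osteogenic and complete libraries, against 0.23 and 0.26 in vector osteogenic and complete libraries. In EphrinB2 cells that difference followed exon length, with Spearman's rho across genes of 0.51 in osteogenic and 0.44 in complete libraries, against -0.02 and 0.04 in vector cells. Genes are not independent replicates, and no p is given for these values.

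Has2, the main hyaluronan synthase of mesenchymal cells, was the member with the widest separation between media. It lies at chr15:56665627-56694539 on the minus strand (GRCm38, ENSMUSG00000022367). It had 0.299 and 0.343 FPKM in EphrinB2 osteogenic libraries, against 3.61 and 3.49 FPKM in EphrinB2 complete libraries. In vector cells it had 0.268 and 0.439 FPKM in osteogenic medium, against 3.24 and 3.50 FPKM in complete medium. All 4 osteogenic libraries lay below all 4 complete libraries, and within each medium the EphrinB2 and vector libraries overlapped. For this and the other members, no share over all tested genes is given for such separation between media. It therefore describes the values only. Has2 fell in osteogenic medium by 1.78 (SE 0.14) on the log2(FPKM + 1) scale in EphrinB2 cells, with an adjusted p of 0.000989 in limma, and by 1.69 (SE 0.14) in vector cells, with an adjusted p of 0.00125. This scale understates the change of low genes. On mean FPKM, the complete medium level was 11.1 times the osteogenic level in EphrinB2 cells (0.321 ± 0.0312 in osteogenic and 3.55 ± 0.0807 in complete, SD, n = 2 each) and 9.53 times in vector cells (0.354 ± 0.121 in osteogenic and 3.37 ± 0.187 in complete, SD, n = 2 each). The osteogenic values rest on an estimated 26 and 28 reads in EphrinB2 cells and 22 and 36 reads in vector cells, against 295 and 244 reads and 257 and 276 reads in complete medium. Has2 passed the threshold in both media comparisons under every alternative in which it was tested, including without each library. It reached 1 FPKM in the complete libraries alone, so the filter on low values let it in through the medium where it was high. In bulk RNA, fewer cells of a type and less RNA per cell cannot be told apart.

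Has1 makes hyaluronan as well and lies at chr17:17843323-17855205 on the minus strand (ENSMUSG00000003665). Has1 had 0.0108 and 0.138 FPKM in EphrinB2 osteogenic libraries, against 0.287 and 1.23 FPKM in EphrinB2 complete libraries. In vector cells Has1 had 0.194 and 0.400 FPKM in osteogenic medium, against 0.897 and 0.642 FPKM in complete medium. The osteogenic libraries lay below the complete libraries within each kind of cell, but the levels stand on few reads, from 1 read in EphrinB2 osteogenic replicate 1 to 92 reads in EphrinB2 complete replicate 2. Has1 reached 1 FPKM in 1 library and was not tested. With no filter on low values its difference was -0.66 in EphrinB2 cells (adjusted p = 0.276 in limma) and -0.45 in vector cells (adjusted p = 0.615).

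Has3, the synthase known for making shorter hyaluronan chains, lies at chr8:106870242-106884566 on the plus strand (ENSMUSG00000031910). Has3 had 0.137 and 0.276 FPKM in EphrinB2 osteogenic libraries, against 0.292 and 0.428 FPKM in EphrinB2 complete libraries. In vector cells Has3 had 0.267 and 0.300 FPKM in osteogenic medium, against 0.234 and 0.177 FPKM in complete medium. Osteogenic libraries were the lower ones in EphrinB2 cells and the higher ones in vector cells, at 18 to 45 estimated reads per library. Exons of Has3 share 352 bases (5.52% of its exon length) with Chtf8 on the opposite strand, a gene with a mean of 25.3 FPKM. Whether the counting used strand is not known from the labels, so reads of both genes there cannot be told apart.

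**Figure D1:**
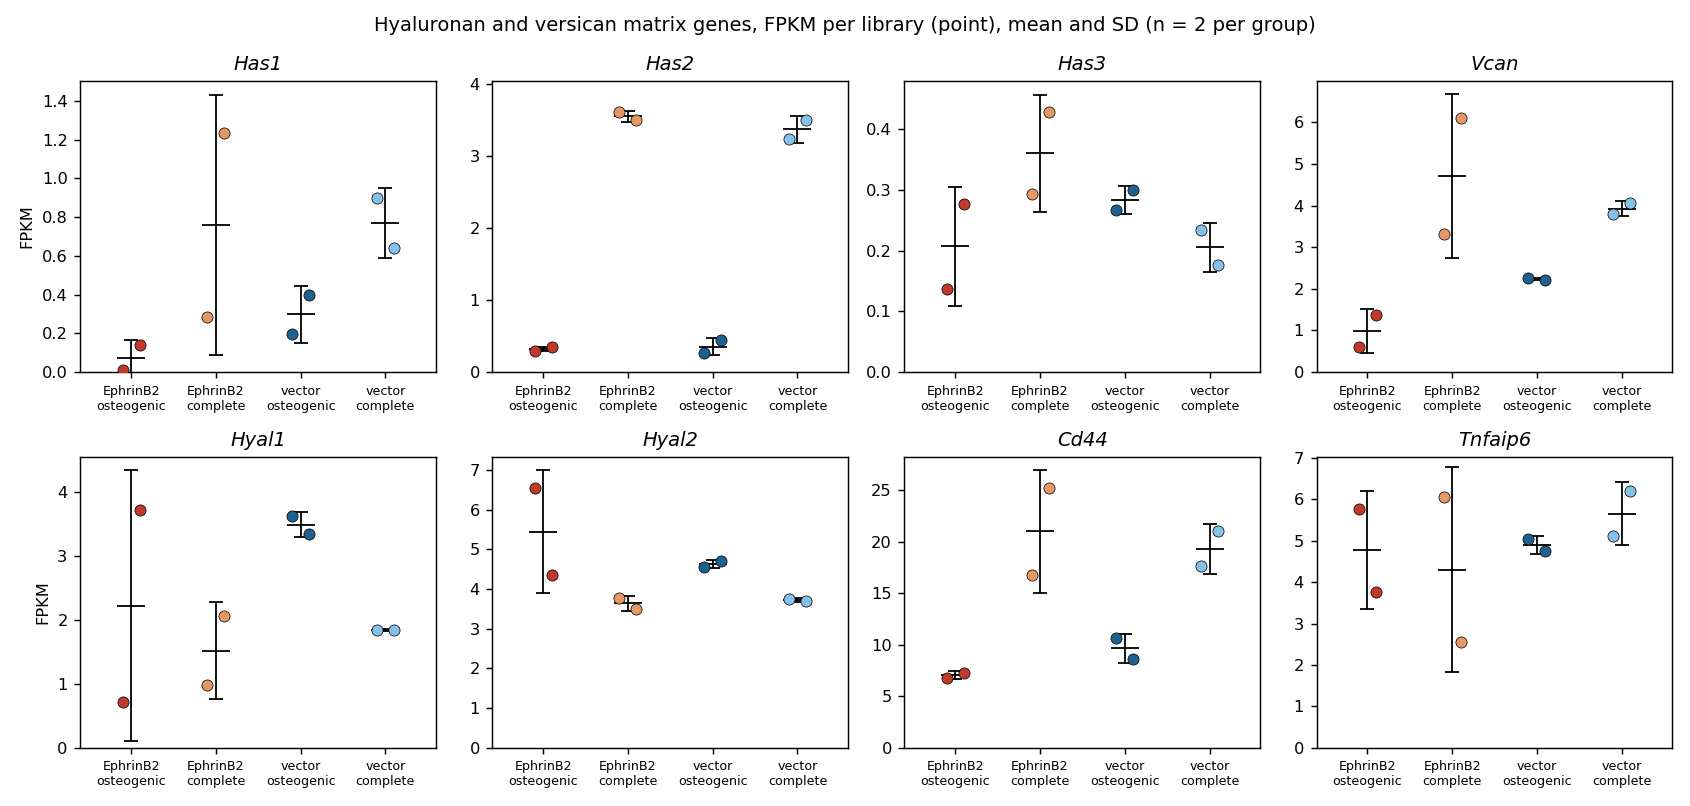
FPKM of the 8 genes in each library (points), with the mean and SD of each group (lines, n = 2 per group, SD bars cut at 0), for EphrinB2 osteogenic, EphrinB2 complete, vector osteogenic and vector complete cells. Has2 sits between 0.268 and 0.439 FPKM in the 4 osteogenic libraries and between 3.24 and 3.61 FPKM in the 4 complete libraries.

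The 3 synthases together had 0.447 and 0.757 FPKM in EphrinB2 osteogenic libraries, against 4.18 and 5.15 FPKM in EphrinB2 complete libraries. In vector cells the sum was 0.730 and 1.14 FPKM in osteogenic medium, against 4.37 and 4.32 FPKM in complete medium. The share of Has2 in that sum was 66.9% and 45.3% in EphrinB2 osteogenic libraries, against 86.2% and 67.7% in EphrinB2 complete libraries. In vector cells Has2 made up 36.8% and 38.5% in osteogenic medium, against 74.1% and 81.0% in complete medium. Has3 took 26.3% to 36.6% of the synthase sum in the osteogenic libraries of both kinds of cell and 4.09% to 8.30% in the complete libraries. These shares are levels per exon length and do not measure enzyme activity.

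Vcan encodes versican, whose globular head binds hyaluronan and whose core carries chondroitin sulfate chains. It lies at chr13:89655312-89742509 on the minus strand (ENSMUSG00000021614). Vcan had 0.602 and 1.36 FPKM in EphrinB2 osteogenic libraries, against 3.32 and 6.10 FPKM in EphrinB2 complete libraries. In vector cells Vcan had 2.26 and 2.22 FPKM in osteogenic medium, against 3.80 and 4.05 FPKM in complete medium. Osteogenic libraries lay below complete libraries within each kind of cell, and the lowest levels of the series were those of EphrinB2 osteogenic cells. Vcan fell in osteogenic medium by 1.51 (SE 0.28) in EphrinB2 cells, with an adjusted p of 0.0177 in limma. In vector cells the difference was -0.60 (SE 0.28), with an adjusted p of 0.302. The mean levels were lowest at 0.981 ± 0.535 FPKM in EphrinB2 osteogenic and then 2.24 ± 0.0255 in vector osteogenic cells, below 4.71 ± 1.97 in EphrinB2 complete and 3.93 ± 0.178 in vector complete cells (SD, n = 2 each), and the complete groups overlapped. Vcan has 14462 exon bases, and its partners differed as long genes did. Replicate 2 exceeded replicate 1 by 0.56 in EphrinB2 osteogenic and 0.72 in EphrinB2 complete cells on the log2 scale, beside medians of 0.58 and 0.42 for tested genes of at least 10000 exon bases. The fall of Vcan in EphrinB2 cells lost its call without EphrinB2 complete replicate 2 (-1.15, adjusted p = 0.0761 in limma) and without EphrinB2 osteogenic replicate 1 (-1.23, adjusted p = 0.0612). Wherever a fit leaves a group with 1 library, that library is assumed to vary like the other groups.

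Cd44, the main cell-surface receptor of hyaluronan, lies at chr2:102811141-102901665 on the minus strand (ENSMUSG00000005087). Cd44 had 6.79 and 7.29 FPKM in EphrinB2 osteogenic libraries, against 16.8 and 25.2 FPKM in EphrinB2 complete libraries. In vector cells Cd44 had 10.6 and 8.63 FPKM in osteogenic medium, against 17.6 and 21.0 FPKM in complete medium. All 4 osteogenic libraries lay below all 4 complete libraries. Cd44 fell in osteogenic medium by 1.43 (SE 0.22) in EphrinB2 cells, with an adjusted p of 0.0106 in limma. In vector cells the difference was -0.93 (SE 0.22), with an adjusted p of 0.0567. Without EphrinB2 complete replicate 1 or 2 the vector difference passed, since those libraries enter the shared spread. It did not pass without any 1 of the vector libraries, where it ran from -1.07 to -0.80. With no filter on low values it did not pass either (adjusted p = 0.112 in limma). Cd44 was the member with the highest level in every library. Its means were lowest at 7.04 ± 0.359 FPKM in EphrinB2 osteogenic and then 9.64 ± 1.42 in vector osteogenic cells, below 21.0 ± 5.96 in EphrinB2 complete and 19.3 ± 2.44 in vector complete cells (SD, n = 2 each). The complete groups overlapped and the osteogenic groups did not. Macrophages also carry Cd44, and the part of such cells in the levels of Cd44 was not tested.

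The promoters shown are those of Cd44 and Vcan. Both genes were called lower in osteogenic medium in EphrinB2 cells, and both have an entry among the RefSeq promoters, as 6 of the 8 members do. Has1 has an entry too and was lower in the osteogenic libraries of each kind of cell, but it was not tested and its promoter is not printed. Each sequence is the 250 bases before the RefSeq start (GRCm38.p6, minus strand, written 5′ to 3′), at chr2:102901666-102901915 for Cd44 and chr13:89742513-89742762 for Vcan. Capitals mark matches on either strand to any of 5 short motifs, an AP-1 site (TGANTCA), a cAMP response element (TGACGTCA), a CCAAT box (CCAAT), a GC box (GGGCGG) and a TATA box (TATAAA).
Cd44: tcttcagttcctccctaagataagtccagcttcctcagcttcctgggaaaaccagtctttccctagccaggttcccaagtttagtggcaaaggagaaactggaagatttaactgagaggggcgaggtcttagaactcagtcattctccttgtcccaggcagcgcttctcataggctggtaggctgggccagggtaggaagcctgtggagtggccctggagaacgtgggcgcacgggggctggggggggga
Vcan: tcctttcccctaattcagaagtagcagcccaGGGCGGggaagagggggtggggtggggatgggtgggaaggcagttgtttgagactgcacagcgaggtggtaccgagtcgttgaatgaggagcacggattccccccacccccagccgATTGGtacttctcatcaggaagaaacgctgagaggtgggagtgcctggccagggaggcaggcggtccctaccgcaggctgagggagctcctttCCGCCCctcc
The Vcan window held 1 CCAAT box and 2 GC boxes, and the Cd44 window held no match to any of the 5. The Has1 window, not printed, held 1 cAMP response element and 1 CCAAT box. Among 32851 RefSeq promoters 33.8% held a CCAAT box, 32.7% a GC box, 12.4% a TATA box, 6.75% an AP-1 site and 1.55% a cAMP response element in the same 250 bases. No matches of different motifs overlapped in these windows, and a match describes letters only.

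Hyal2, a membrane-anchored hyaluronidase that cuts long chains at the cell surface, lies at chr9:107567945-107572779 on the plus strand (ENSMUSG00000010047). Hyal2 had 6.55 and 4.35 FPKM in EphrinB2 osteogenic libraries, against 3.77 and 3.50 FPKM in EphrinB2 complete libraries. In vector cells Hyal2 had 4.55 and 4.71 FPKM in osteogenic medium, against 3.76 and 3.69 FPKM in complete medium. All 4 osteogenic libraries lay above all 4 complete libraries by a small step, and neither difference between media passed the threshold. The difference was 0.45 (SE 0.18) in EphrinB2 cells, with an adjusted p of 0.151 in limma, and 0.25 (SE 0.18) in vector cells, with an adjusted p of 0.567. Leaving out 1 library gave 0.21 to 0.70 in EphrinB2 cells. Without EphrinB2 osteogenic replicate 2 the difference was 0.70 and passed (adjusted p = 0.0107 in limma), where 43.8% of all tested genes did, and without replicate 1 it was 0.21 (adjusted p = 0.349).

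Hyal1, a lysosomal hyaluronidase that degrades internalised fragments, lies next to Hyal2 at chr9:107576927-107581710 on the plus strand (ENSMUSG00000010051). Hyal1 had 0.721 and 3.72 FPKM in EphrinB2 osteogenic libraries, against 0.987 and 2.05 FPKM in EphrinB2 complete libraries. In vector cells Hyal1 had 3.62 and 3.35 FPKM in osteogenic medium, against 1.85 and 1.84 FPKM in complete medium. The vector groups did not overlap, and the EphrinB2 groups did. The partners in EphrinB2 osteogenic cells lay 1.46 apart on the log2 scale, the widest gap of any tested member. The difference between media was 0.21 (SE 0.45, adjusted p = 0.757 in limma) in EphrinB2 cells and 0.66 (SE 0.45, adjusted p = 0.540) in vector cells. In EphrinB2 cells it stood at 0.94 without osteogenic replicate 1 and at -0.52 without osteogenic replicate 2. Exons of Hyal1 share 1920 bases, 50.8% of its exon length, with Naa80 on the same strand, a gene with a mean of 4.56 FPKM, so part of its reads may be assigned to either gene and its level is uncertain.

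The sum of Hyal1 and Hyal2 was 7.27 and 8.07 FPKM in EphrinB2 osteogenic libraries, against 4.76 and 5.55 FPKM in EphrinB2 complete libraries. In vector cells it was 8.17 and 8.06 FPKM in osteogenic medium, against 5.61 and 5.52 FPKM in complete medium. Synthase FPKM divided by this sum gave 0.0615 and 0.0938 in EphrinB2 osteogenic libraries, against 0.879 and 0.928 in EphrinB2 complete libraries. In vector cells the ratio was 0.0893 and 0.141 in osteogenic medium, against 0.779 and 0.782 in complete medium. The ratio was thus lower in each osteogenic library than in any complete library, while Hyal1 carries the uncertainty of its overlap. Cemip, a hyaluronan-degrading gene described below, is outside this sum and was itself lower in osteogenic medium. It had 39.2 and 79.8 FPKM in EphrinB2 osteogenic libraries, against 210.9 and 275.5 FPKM in EphrinB2 complete libraries. In vector cells it had 102.6 and 89.5 FPKM, against 275.4 and 267.4 FPKM. The ratio therefore does not set synthesis against all breakdown.

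**Figure D2:**
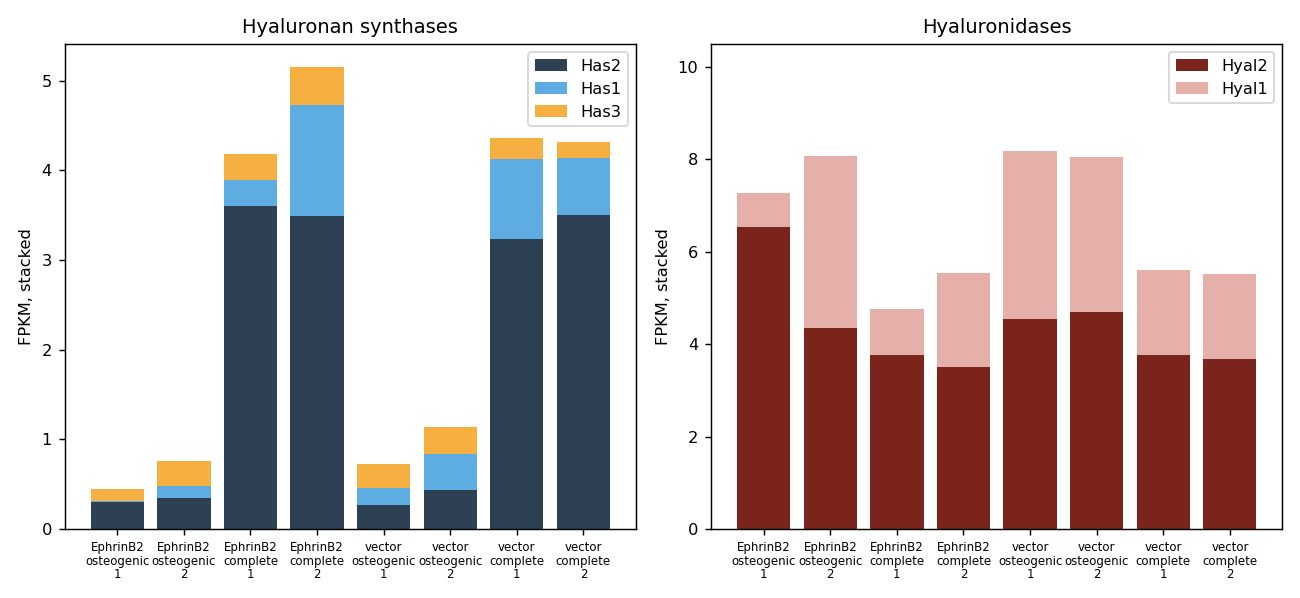
Stacked FPKM per library of the synthases Has2, Has1 and Has3 (left) and of the hyaluronidases Hyal2 and Hyal1 (right). Cemip, another hyaluronan-degrading gene, is not included. The synthase sum is at most 1.14 FPKM in osteogenic libraries and at least 4.18 FPKM in complete libraries, while the hyaluronidase sum is at least 7.27 FPKM in osteogenic and at most 5.61 FPKM in complete libraries.

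Tnfaip6 encodes TSG-6, a secreted enzyme that moves heavy chains of inter-alpha-inhibitor onto hyaluronan, and lies at chr2:52038009-52056686 on the plus strand (ENSMUSG00000053475). Tnfaip6 had 5.78 and 3.76 FPKM in EphrinB2 osteogenic libraries, against 6.06 and 2.55 FPKM in EphrinB2 complete libraries. In vector cells Tnfaip6 had 5.05 and 4.74 FPKM in osteogenic medium, against 5.12 and 6.19 FPKM in complete medium. The vector groups lay next to each other without overlap, and the EphrinB2 libraries differed more between partners than between media. The difference between media was 0.18 (SE 0.33, adjusted p = 0.717 in limma, 95% interval -0.61 to 0.98) in EphrinB2 cells and -0.17 (SE 0.33, adjusted p = 0.891, 95% interval -0.96 to 0.62) in vector cells. Its direction in EphrinB2 cells turned to -0.57 without the libraries that stood apart, which sets 1 library against 1, and to -0.22 with the trend on exon length removed.

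Counted over the tested members, osteogenic against complete medium lowered 3 of 6 in EphrinB2 cells (Has2, Vcan and Cd44) and raised none, where 11.8% of all tested genes passed the threshold (6.36% higher, 5.44% lower). In vector cells it lowered 1 of 6 (Has2) and raised none, where 7.52% of all tested genes passed (4.41% higher, 3.11% lower). Has2 was among the 6 through its complete libraries alone. The median difference of the 6 was -0.62 in EphrinB2 cells, beside 0.03 over all tested genes, and -0.39 in vector cells, beside -0.02 over all tested genes. The model shares 1 spread over all groups, and the vector libraries lay closer together. Fitted on the EphrinB2 libraries alone, 1 of 6 members passed (Has2, adjusted p = 0.0331), where 1.18% of all genes did. Fitted on the vector libraries alone, 5 of 6 passed, where 40.6% of all genes did. Has2, Cd44 (adjusted p = 0.00704) and Vcan (adjusted p = 0.00365) were then lower in osteogenic medium, and Hyal1 (adjusted p = 0.0036) and Hyal2 (adjusted p = 0.0266) higher. Without the libraries that stood apart, each EphrinB2 group is 1 library, and the spread comes from the vector libraries alone. That fit sets 1 EphrinB2 library against 1 and has no replicate check in EphrinB2 cells. In it 5 of 6 members passed, where 29.7% of all genes did, with Has2 at -1.78, Cd44 at -1.10, Vcan at -0.87, Tnfaip6 at -0.57 and Hyal1 at 1.25.

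**Figure D3:**
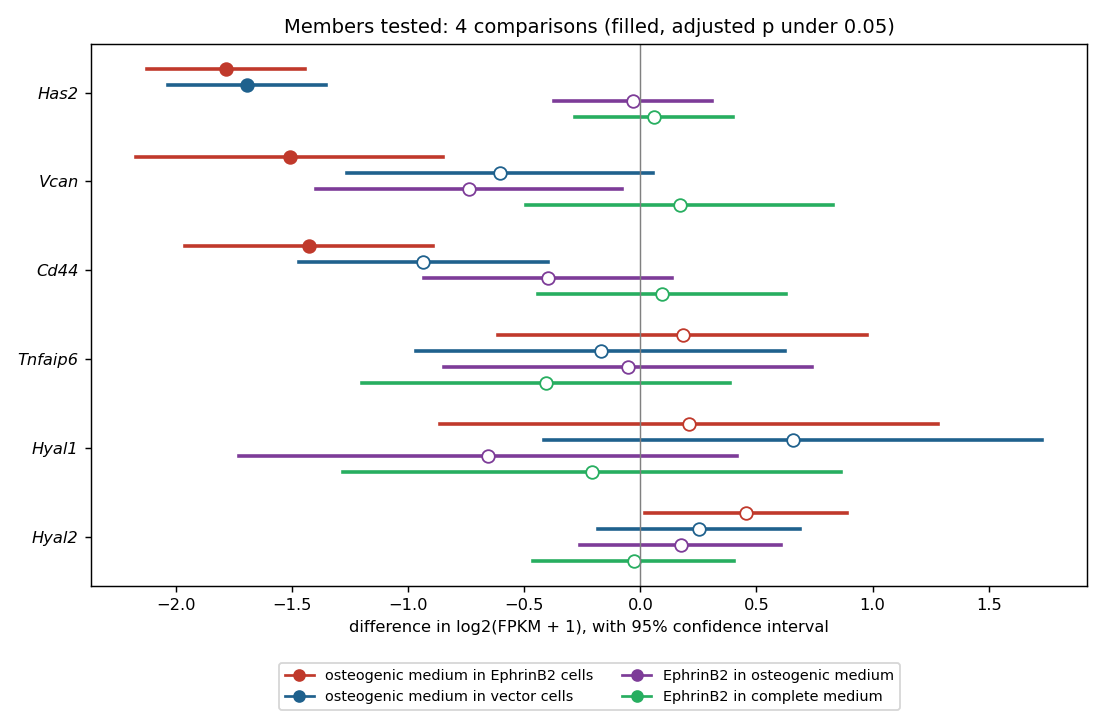
Differences in log2(FPKM + 1) with 95% confidence intervals for the 6 tested genes in 4 comparisons (osteogenic minus complete medium in EphrinB2 and in vector cells, EphrinB2 minus vector in osteogenic and in complete medium), filled where the adjusted p was under 0.05. Has2 is filled in both media comparisons at -1.78 and -1.69, Vcan and Cd44 in EphrinB2 cells, and no EphrinB2 comparison is filled.

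EphrinB2 overexpression changed none of the 6 tested members beyond the threshold in either medium, in the average over media or in its interaction with medium. In complete medium 1 of 12994 genes passed (0.0077%) and 167 had an unadjusted p under 0.05. In osteogenic medium 0 genes passed (0%) and 441 had an unadjusted p under 0.05. In osteogenic medium the member differences ran from -0.74 for Vcan to 0.17 for Hyal2, with adjusted p from 0.567 to 0.938 in limma. In complete medium they ran from -0.41 for Tnfaip6 to 0.17 for Vcan, each with an adjusted p of 1. Averaged over media, where 0 genes passed (0%) and 331 had an unadjusted p under 0.05, they ran from -0.43 for Hyal1 to 0.07 for Hyal2. Vcan in osteogenic medium had the smallest p of these (unadjusted p = 0.0335 in limma, adjusted p = 0.567, 95% interval -1.40 to -0.08), and both EphrinB2 libraries lay below both vector libraries. Cd44 in osteogenic medium also had groups that did not overlap, at -0.40 (95% interval -0.93 to 0.14), where 47.9% of all tested genes had groups that did not overlap. Without EphrinB2 osteogenic replicate 2, Hyal1 passed at -1.38 (adjusted p = 0.0310 in limma), where 21.1% of all genes did, and without replicate 1 it stood at 0.07. For Has2 the difference was -0.03 (95% interval -0.37 to 0.31) in osteogenic medium and 0.06 (95% interval -0.28 to 0.40) in complete medium. Efnb2 itself, at 2.21 and 2.26, had adjusted p of 0.567 and 1 in osteogenic and complete medium, at a mean 8.76 times the vector mean in osteogenic and 5.41 times in complete medium, so the overexpressed gene did not pass the threshold either. In osteogenic medium Efnb2 passed without EphrinB2 osteogenic replicate 1 (3.05, adjusted p = 0.0146) and without replicate 2 (1.37, adjusted p = 0.0204), and in complete medium without either of these libraries (2.26, adjusted p = 0.0248 and 0.0238).

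The interaction asks whether the difference between media was larger in EphrinB2 than in vector cells, and 0 of 12994 genes passed (0%), with 214 at an unadjusted p under 0.05. Vcan came nearest among the members, at -0.91 (95% interval -1.84 to 0.03, unadjusted p = 0.0552 and adjusted p = 0.746 in limma). Cd44 stood at -0.49 and Hyal1 at -0.45, while Has2 stood at -0.09 (95% interval -0.57 to 0.39). A fall of Vcan and Cd44 called in EphrinB2 cells and not in vector cells was therefore not shown to differ between the kinds of cell.

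Genes with related roles were taken from 9 lists of 96 genes, of which 72 were tested. In osteogenic medium 10 rose and 19 fell in EphrinB2 cells, beside shares over the 12994 genes of 6.36% higher and 5.44% lower. In vector cells 10 rose and 10 fell, beside shares of 4.41% higher and 3.11% lower. Each list's counts below are to be read against the same shares. The median difference over the 72 was -0.34 in EphrinB2 cells, beside 0.03 over all tested genes, and -0.11 in vector cells, beside -0.02. Of the genes named in these lists, Lyve1, Itih4, Adamts15, Adamts8, Chst15, Eln and Selp kept their calls in both kinds of cell without each library in turn. The calls of 7 others in EphrinB2 cells (Cemip, Cemip2, Gusb, Stab1, Itih3, Adamts4 and Chsy3) were lost without at least 1 library, at adjusted p of 0.0509 to 0.156 in limma. In vector cells those of 10 (Cemip, Hmmr, Stab1, Itih2, Itih3, Csgalnact1, Chst7, Fbln2, Mmp9 and Mmp14) were lost, at adjusted p of 0.0513 to 0.297. Each of these differences kept its direction. Lyve1, Itih3, Itih4, Chst15 and Mmp9 reached 1 FPKM in osteogenic libraries alone, and Hmmr and Adamts8 in complete libraries alone. The filter on low values therefore let these genes in through the medium where they were high.

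Of the genes that supply the sugar precursors of hyaluronan, 0 of 11 tested passed the threshold in either kind of cell. Their median differences were 0.12 in EphrinB2 cells and 0.03 in vector cells.

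Of the genes for hyaluronan breakdown other than the members, 1 of 5 tested rose and 2 fell in EphrinB2 cells, and 0 rose and 1 fell in vector cells. Cemip, a secreted hyaluronan-degrading protein of fibroblasts, had 39.2 and 79.8 FPKM in EphrinB2 osteogenic libraries, against 210.9 and 275.5 FPKM in EphrinB2 complete libraries. In vector cells Cemip had 102.6 and 89.5 FPKM in osteogenic medium, against 275.4 and 267.4 FPKM in complete medium. Its level per exon length was above that of Hyal1 and Hyal2 in every library. Cemip fell by 2.09 (SE 0.34) in EphrinB2 cells, with an adjusted p of 0.0117 in limma, and by 1.49 (SE 0.34) in vector cells, with an adjusted p of 0.0462. Cemip2, its membrane-bound relative, fell in EphrinB2 cells by 1.05 (SE 0.18) and stood at -0.50 in vector cells. Gusb, a lysosomal beta-glucuronidase that trims hyaluronan fragments, rose by 0.83 (SE 0.19) in EphrinB2 cells and stood at 0.65 in vector cells.

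Of 6 tested hyaluronan receptors other than Cd44, 2 rose and 1 fell in each kind of cell. Lyve1, the receptor of lymphatic vessels and of some tissue macrophages, had 33.6 and 48.1 FPKM in EphrinB2 osteogenic libraries, against 0.12 and 0.06 FPKM in EphrinB2 complete libraries. In vector cells Lyve1 had 46.6 and 50.4 FPKM in osteogenic medium, against 0.13 and 0.17 FPKM in complete medium. It rose by 5.24 (SE 0.19) in EphrinB2 cells and by 5.43 (SE 0.19) in vector cells. Stab1, a scavenger receptor of macrophages, rose by 1.47 (SE 0.34) and 1.96 (SE 0.34) in EphrinB2 and vector cells. Of the 14 macrophage markers, 12 rose and 1 fell in EphrinB2 cells and 7 rose and 0 fell in vector cells, and their part in the rise of Lyve1 and Stab1 was not tested. Hmmr, a hyaluronan-binding protein of dividing cells, fell by 1.44 (SE 0.14) and 0.95 (SE 0.14).

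Among the partners of Tnfaip6 in heavy chain transfer 3 of 4 tested rose and 0 fell in each kind of cell. These 3 were the heavy chain genes Itih4, Itih2 and Itih3. Itih4 had 1.99 and 2.05 FPKM in EphrinB2 osteogenic libraries, against 0.04 and 0.13 FPKM in EphrinB2 complete libraries, and 2.31 and 2.65 FPKM in vector osteogenic libraries, against 0.04 and 0.03 FPKM in vector complete libraries. Itih4 rose by 1.48 (SE 0.15) in EphrinB2 cells and 1.75 (SE 0.15) in vector cells. Itih2 rose by 1.26 and 0.89, and Itih3 by 0.73 and 0.79, all at levels under 4 FPKM. The other tested partner, Ptx3, had a higher level in every library and was not called in either kind of cell. Ptx3 had 57.5 and 36.0 FPKM in EphrinB2 osteogenic libraries, against 67.5 and 50.7 FPKM in EphrinB2 complete libraries. In vector cells it was lower in osteogenic medium, at 45.2 and 46.5 FPKM, against 88.7 and 112.7 FPKM in complete medium.

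Of 6 tested proteases that cleave versican, 1 rose and 3 fell in EphrinB2 cells, and 1 rose and 1 fell in vector cells. Adamts15 had 8.74 and 13.4 FPKM in EphrinB2 osteogenic libraries, against 1.06 and 1.06 FPKM in EphrinB2 complete libraries, and 15.9 and 14.3 FPKM in vector osteogenic libraries, against 0.94 and 0.82 FPKM in vector complete libraries. It rose by 2.53 (SE 0.20) in EphrinB2 cells and 3.10 (SE 0.20) in vector cells. Adamts8 fell by 1.79 (SE 0.15, adjusted p = 0.00126) in EphrinB2 cells and fell in vector cells (adjusted p = 0.00275), with at most 0.09 FPKM in any osteogenic library. Adamts4 fell by 1.59 (SE 0.29) in EphrinB2 cells and stood at -1.08 in vector cells (adjusted p = 0.0832). Adamts5 and Adamts1, named after their values were seen, had higher levels than these genes in every library. Adamts5 had 114.7 and 179.6 FPKM in EphrinB2 osteogenic, against 148.2 and 243.2 FPKM in EphrinB2 complete libraries. In vector cells it had 171.0 and 178.1 FPKM, against 178.8 and 170.8 FPKM. Adamts1 stood at 70.6 to 124.3 FPKM, and neither gene was called in vector cells.

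Of 20 tested genes for the chondroitin sulfate chains that versican carries, 1 rose and 6 fell in EphrinB2 cells, and 1 rose and 2 fell in vector cells. The one that rose was Chst15, a sulfotransferase, by 2.44 (SE 0.20) in EphrinB2 cells and 2.83 (SE 0.20) in vector cells. Csgalnact1, which starts chain synthesis, fell by 1.70 (SE 0.19) and 1.48 (SE 0.19). Chst7, another sulfotransferase, fell by 0.79 (SE 0.15) and 1.06 (SE 0.15), and Chsy3, which extends the chains, fell by 1.24 (SE 0.19) in EphrinB2 cells and stood at -0.63 in vector cells.

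Of 11 tested binding partners of versican, 2 rose and 6 fell in EphrinB2 cells, and 2 rose and 4 fell in vector cells. Eln, the elastin gene, had 11.9 and 14.2 FPKM in EphrinB2 osteogenic libraries, against 194.9 and 148.6 FPKM in EphrinB2 complete libraries, and 11.0 and 11.3 FPKM in vector osteogenic libraries, against 115.4 and 127.1 FPKM in vector complete libraries. Eln fell by 3.61 (SE 0.19) in EphrinB2 cells and 3.33 (SE 0.19) in vector cells. Fbln2, an elastic fibre glycoprotein, fell by 1.99 (SE 0.22) and 1.57 (SE 0.22), and Selp, which encodes an adhesion molecule of platelets and endothelium, by 1.83 (SE 0.17) and 1.75 (SE 0.17).

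Of 9 tested partners of Cd44, 0 rose and 1 fell in EphrinB2 cells, and 1 rose and 1 fell in vector cells, counts too small to set apart from the shares over all tested genes. Mmp14, a membrane-bound protease that cleaves Cd44, fell by 1.17 (SE 0.18) and 0.95 (SE 0.18). Mmp9, a gelatinase that binds Cd44, had 1.46 and 0.40 FPKM in EphrinB2 osteogenic libraries, against 0.13 and 0.41 FPKM in EphrinB2 complete libraries, and 4.15 and 3.88 FPKM in vector osteogenic libraries, against 0.45 and 0.44 FPKM in vector complete libraries. Its difference was 0.55 (SE 0.28, adjusted p = 0.221) in EphrinB2 cells, and it rose by 1.79 (SE 0.28) in vector cells. All 7 genes of the list of other large hyaluronan-binding proteoglycans and link proteins were under the filter.

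**Figure D4:**
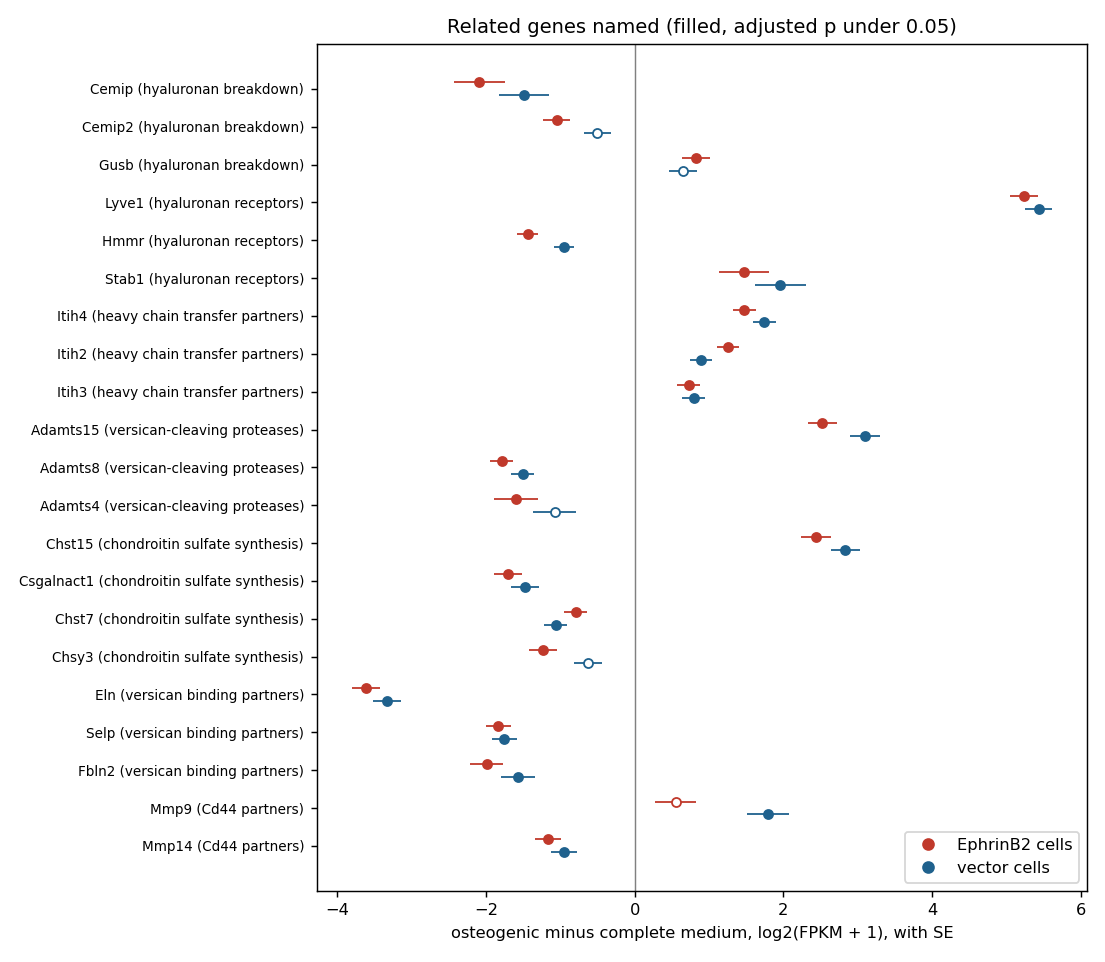
Osteogenic minus complete medium in log2(FPKM + 1), with SE, for the related genes named by rule, in EphrinB2 cells (upper point of each pair) and vector cells (lower point), filled where the adjusted p was under 0.05. Lyve1 lies at 5.24 and 5.43 and Eln at -3.61 and -3.33, at the ends of the range.

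By Pearson's r of log2(FPKM + 1) across the 8 libraries, among 10576 named protein-coding genes, the levels most like Has2 were those of Tmem178 (r = 0.998), Tnfrsf11b (0.997) and Pcsk5 (0.997). For Cd44 they were Slc7a11 (0.994), Lhfpl2 (0.987) and Mgat3 (0.985), and for Vcan Sdc3 (0.990), Nacc2 (0.990) and Disp1 (0.989). For Hyal2 they were Bin1 (0.992), B3galt4 (0.991) and Nudt9 (0.990), for Hyal1 Baz2b (0.990), Cds2 (0.986) and Ift122 (0.984), and for Tnfaip6 Dolpp1 (0.989), Mrgbp (0.970) and Smox (0.967). An r of at least 0.95 was reached by 441 genes for Vcan, 367 for Has2, 274 for Cd44, 227 for Hyal2, 71 for Hyal1 and 3 for Tnfaip6. The 8 points share the same libraries and 4 groups, and these values are descriptions. Among the members, Cd44 had r = 0.95 with Vcan and 0.93 with Has2, and Hyal2 had r = -0.92 with Vcan.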

How the data were processed

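Gene expression was measured by RNA sequencing of total RNA. The authors deposited 1 table of FPKM values for 54532 genes in 8 libraries. The submitters' processing notes name the build mm10 and the tools DESeq2 1.16.1, featureCounts 1.5.0-p3, HISAT2 2.0.5 and CASAVA. The annotation release, strand use and filters of that processing were not given in the sources used here. GENCODE M21 (GRCm38) supplied symbols, places and exon lengths; it matched 54495 identifiers and left 37 unmatched.

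Because FPKM is a scaled unit, no test for counts was run. Low values were whole multiples of 1 step per library once multiplied by exon length, within 0.02 reads for 98.1% to 98.3% of genes under 50 reads. That step gave the depth and the read numbers of genes. Counting error on these reads leaves out the differences between partner libraries, which can be wider, as for Hyal1 with 56 and 271 reads in EphrinB2 osteogenic libraries. Genes with at least 1 FPKM in at least 2 libraries were tested on log2(FPKM + 1) with limma 3.58.1 in R 4.3.3, with 1 mean per group over all 8 libraries, a mean-variance trend, 4 residual and 2.72 prior degrees of freedom. Tests were two-sided. The Benjamini-Hochberg adjustment ran over 12994 genes, with a threshold of 0.05. The steps were tested on simulated data. Replicate numbers follow listed order and pair nothing.

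The members, related gene lists, marker lists and alternatives were chosen with earlier results of these data known. The text names all 8 members, Efnb2, up to 3 called genes with the smallest p per list and medium comparison, and the 3 genes most like each member with a mean of at least 1 FPKM. Other related genes and markers were named after their values were seen. The alternatives were another pseudocount, no filter and a stricter one, other scalings, array weights, separate fits, leaving out libraries, and removal of the trend on exon length, which was chosen after seeing the data. Promoter sequences came from RefSeq (GRCm38.p6).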

Additional observations from a re-analysis of the deposited data

Results flagged for a closer look

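Has3 was the member whose media groups lay apart without overlap in both kinds of cell, but in opposite directions. Its osteogenic mean was 0.575 times the complete mean in EphrinB2 cells, with both osteogenic libraries below both complete libraries. In vector cells its osteogenic mean was 1.38 times the complete mean, with both osteogenic libraries above both complete libraries. Has3 was under the filter, at 18 to 45 estimated reads per library, and this difference was not tested with the other genes. No share over all genes is given for such separation, so it describes the values only. In vector cells the ranges from counting error overlapped, at 0.156 to 0.338 and 0.109 to 0.270 FPKM in complete libraries. In osteogenic libraries they were 0.184 to 0.375 and 0.211 to 0.413 FPKM. In EphrinB2 cells only osteogenic replicate 1 (0.0814 to 0.217 FPKM) and complete replicate 2 (0.312 to 0.572 FPKM) had ranges apart. With no filter on low values, the interaction of medium and EphrinB2 was -0.26 (adjusted p = 0.787 in limma). Differences of Tnfaip6 between media also had opposite signs, at 0.18 in EphrinB2 cells and -0.17 in vector cells, but its EphrinB2 groups overlapped.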

How the results depend on the processing

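No paired analysis was possible because the labels give no replicate numbers shared between groups. Has2 kept its direction and call in both media comparisons under every alternative that tested it, from -1.71 to -3.12 in EphrinB2 cells and from -1.60 to -2.96 in vector cells. A mean of at least 5 FPKM left Cd44 as the only member tested. Over all single genes named and all alternatives, a call was lost 107 times and gained 27 times. Genes called for medium in EphrinB2 cells numbered 1533, with 3 members. With a mean of at least 5 FPKM there were 867 genes and 1 member, with array weights 335 and 1, with EphrinB2 libraries alone 153 and 1, without the libraries that stood apart 3858 and 5, and leaving out 1 library gave 635 to 5686 genes and 2 to 4 members. In vector cells 977 genes and 1 member were called. A mean of at least 5 FPKM gave 551 and 0, array weights 5521 and 5, vector libraries alone 5273 and 5, leaving out the libraries that stood apart 5274 and 5, removal of the length trend 1554 and 3, and quantile normalization and median centring 2 members each. Leaving out 1 library gave 169 to 1749 genes and 1 to 2 members. For EphrinB2 in complete medium 1 gene was called, against 0 with a pseudocount of 0.1, a mean of at least 5 FPKM, array weights, complete medium libraries alone or the length trend removed, 13 with no filter, 2 without the libraries that stood apart and 0 to 1 without 1 library. In osteogenic medium 0 were called, against 14 with no filter, 1 without the libraries that stood apart and 0 to 2742 without 1 library (0 to 1 member). Averaged over media 0 were called, against 21 with no filter, 1 without the libraries that stood apart and 0 to 398 without 1 library. For the interaction 0 were called, against 22 with no filter. The cause of these moves was not tested.

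Several uncalled differences turned direction. Without the libraries that stood apart, which leaves 1 library in each EphrinB2 group, Tnfaip6 stood at -0.57 for medium in EphrinB2 cells, 0.0896 for EphrinB2 in complete medium and -0.40 for the interaction. Hyal2 stood at 0.0155 for EphrinB2 in complete medium, -0.0738 in osteogenic medium, -0.0291 averaged and -0.0894 for the interaction, and Hyal1 at 0.0738 for EphrinB2 in osteogenic medium and 0.59 for the interaction. Cd44 and Vcan both stood at -0.19 for EphrinB2 in complete medium. With the length trend removed Tnfaip6 stood at -0.22 for medium in EphrinB2 cells and -0.0620 for the interaction, and Has2 at -0.0055 for EphrinB2 averaged, where a pseudocount of 0.1 gave -0.0053. Quantile normalization put Has2 at 0.22 for EphrinB2 in osteogenic medium and 0.13 for the interaction. Leaving out 1 library in turn gave ranges that cross 0. For medium in EphrinB2 cells they were -0.52 to 0.94 for Hyal1, -0.31 to 0.68 for Tnfaip6. For EphrinB2 in complete medium they were -0.52 to 0.10 for Hyal1, -0.0704 to 0.0155 for Hyal2, -0.19 to 0.37 for Cd44, -0.19 to 0.53 for Vcan, -0.90 to 0.0896 for Tnfaip6. For EphrinB2 in osteogenic medium they were -0.12 to 0.0582 for Has2, -1.38 to 0.0738 for Hyal1, -0.0738 to 0.42 for Hyal2, -0.31 to 0.20 for Tnfaip6. For EphrinB2 averaged over media they were -0.0325 to 0.0586 for Has2, -0.0506 to 0.20 for Hyal2, -0.48 to 0.0183 for Tnfaip6. For the interaction they were -1.18 to 0.28 for Hyal1, -0.0464 to 0.45 for Hyal2, -0.14 to 0.85 for Tnfaip6. Depth limits Has1, Has2 and Has3 in osteogenic medium, where 1 to 37 reads stand behind a value.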

Other observations

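The remaining hyaluronidase genes and the other large hyaluronan-binding proteoglycans were barely represented in these libraries. Hyal3 stayed between 0.0622 and 0.345 FPKM over the 8 libraries. Hyal4 reached at most 0.0371 FPKM, Hyal5 0.0239 FPKM and Hyal6 0.0150 FPKM, and Spam1, the sperm hyaluronidase, was listed at 0 in every library. Acan (aggrecan) reached at most 0.125 FPKM, Bcan 0.0637 FPKM and Ncan 0.00843 FPKM. The link protein gene Hapln1 reached 0.0613 FPKM, Hapln2 0.0219 FPKM, Hapln3 0.111 FPKM and Hapln4 0.150 FPKM. Ptx3, which encodes a pentraxin that binds the product of Tnfaip6 in hyaluronan matrix, stood at 36.0 to 112.7 FPKM.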
